A study of Mus musculus with 6 samples.

Results

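Germline and cancer-testis genes are genes whose transcripts are largely confined to testis, ovary or placenta and which reappear in some tumours. Of the genes on the deposited array table, 4 are described here: *Magea5*, *Ssxb3*, *Rhox1* and *Hspa2*. They were picked by symbol from the platform annotation of 6951 transcript clusters, the probe sets through which the array reads genes, and each has 1 transcript cluster annotated to it alone. Another 5 transcript clusters are annotated to *Magea5* or *Ssxb3* together with close relatives. The choice was made with results of these arrays known, and the table itself holds only transcript clusters that differ between the groups, so the values of the members are a description and carry no test.

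RNA came from N2A cells, a mouse neuroblastoma line, in 2 groups of 3 arrays. Control cells carried a vector for a scrambled, non-targeting shRNA and knockdown cells one for an shRNA against *Kap1*, the gene *Trim28*. Both groups received 1.5 µg of shRNA plasmid with a hygromycin resistance plasmid, were put under hygromycin on day 3, and were collected as pools of resistant cells after 7 days of selection, without cloning. Each array was hybridised with material from 200 ng RNA. The labels speak of triplicates but not of separate transfections, so the SDs and errors given here rest on arrays whose scatter may be technical only.

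In most somatic cells germline genes are held silent by repressive chromatin and, at many promoters, by DNA methylation. KAP1 is a scaffold that brings the histone H3 lysine 9 methyltransferase SETDB1 and HP1 proteins to chromatin, and loss of such repressors is known to release subsets of germline genes in other systems. *Magea5* belongs to the MAGE-A family of the X chromosome, whose proteins bind RING-type ubiquitin ligases. *Ssxb3* belongs to the SSX family of nuclear repressors, known in human synovial sarcoma as fusion partners of SS18. *Rhox1* encodes a homeodomain protein of the reproductive homeobox cluster on the X chromosome. *Hspa2* encodes an HSP70 chaperone that mouse spermatocytes need to complete meiosis, and it is also transcribed in somatic tissues such as brain, so it is not strictly restricted to the germline.

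The promoters of the 4 genes are shown because their CG content divides the members in the same way as the direction of their difference, which was noticed after the values were known. Each run holds 250 bases before and 50 after the start of the gene on its own strand, taken from RefSeq (GRCm38.p6), with CG dinucleotides, the sites of DNA methylation, in capitals. The windows lie at chrX:155061504-155061803 (minus strand) for *Magea5*, chrX:8591767-8592066 (minus strand) for *Ssxb3*, chrX:37222209-37222508 (minus strand) for *Rhox1* and chr12:76404120-76404419 (plus strand) for *Hspa2*.
Magea5: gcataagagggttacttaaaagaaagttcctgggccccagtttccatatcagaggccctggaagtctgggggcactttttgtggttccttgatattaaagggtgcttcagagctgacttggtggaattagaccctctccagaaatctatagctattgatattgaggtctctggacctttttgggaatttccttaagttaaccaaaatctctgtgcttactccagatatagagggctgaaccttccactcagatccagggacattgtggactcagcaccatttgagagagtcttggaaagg
Ssxb3: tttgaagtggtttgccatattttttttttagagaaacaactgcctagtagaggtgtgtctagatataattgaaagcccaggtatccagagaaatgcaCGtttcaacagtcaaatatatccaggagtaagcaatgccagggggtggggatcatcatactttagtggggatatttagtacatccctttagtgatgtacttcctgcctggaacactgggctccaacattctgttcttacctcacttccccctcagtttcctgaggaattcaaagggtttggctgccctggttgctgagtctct
Rhox1: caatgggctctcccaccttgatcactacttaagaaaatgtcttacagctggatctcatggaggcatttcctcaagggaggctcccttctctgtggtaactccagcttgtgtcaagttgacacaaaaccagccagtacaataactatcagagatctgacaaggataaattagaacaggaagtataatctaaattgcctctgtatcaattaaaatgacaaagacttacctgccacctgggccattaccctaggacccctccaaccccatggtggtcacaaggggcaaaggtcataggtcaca
Hspa2: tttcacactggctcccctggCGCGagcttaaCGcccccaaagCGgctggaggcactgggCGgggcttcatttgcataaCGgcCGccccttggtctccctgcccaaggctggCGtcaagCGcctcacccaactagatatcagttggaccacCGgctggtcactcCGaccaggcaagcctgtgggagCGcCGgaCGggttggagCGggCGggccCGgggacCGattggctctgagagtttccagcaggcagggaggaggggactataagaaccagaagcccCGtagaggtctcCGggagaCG

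The *Magea5* and *Rhox1* windows held 0 CG dinucleotides and the *Ssxb3* window held 1, whereas the *Hspa2* window held 21. The median over 32851 promoter windows of the same length was 7. Fewer than 21 were found in 75.2% of the windows, and more than 1 in 85.9%. Among relatives of *Magea5*, the windows of *Magea1*, *Magea3* and *Magea6* held 1, 0 and 1, but those of *Magea2* and *Magea8* held 9 and 10. *Magea2* and *Magea8* were read only through shared transcript clusters, and these were lower in the knockdown. Those transcript clusters also read other copies, so whether the split of the members extends to *Magea2* and *Magea8* cannot be told. The G and C content was 45.0% for *Magea5*, 43.7% for *Ssxb3*, 45.3% for *Rhox1* and 65.0% for *Hspa2*. The short motifs below were searched on both strands. TCCCGC, the core bound by the repressor E2F6, and CACGTG, the E-box bound by MAX dimers, were in none of the 4 windows and in 20.0% and 7.15% of all windows. GGGCGG, the GC box, occurred at 3 places in *Hspa2* and in none of the other members, against 35.7% of all windows. GAANNTTC, a pair of heat shock factor half-sites, occurred at 2 places in *Magea5*, in no other member and in 7.86% of all windows. The matches did not overlap one another. A match is a description of letters and not of binding, and no methylation or binding data were analysed here.

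*Trim28*, the gene knocked down, averaged 3362 ± 88.9 (SD, n = 3) on control arrays and 888 ± 41.9 (SD, n = 3) on knockdown arrays, so that 26.4% of the signal was left. The deposited values are linear intensities after normalisation by Robust Multi-array Average. They ran from 22 to 18348 on the control arrays and from 24 to 15617 on the knockdown arrays. Differences below are knockdown minus control on the log2 scale, with standard errors from limma. These errors are moderated: limma draws the variance of each transcript cluster toward a value typical of the whole table. For *Magea5*, *Ssxb3* and *Hspa2*, whose arrays scattered more than that value, the errors are smaller than their own arrays alone would give. A gene is said to have risen or fallen where the Benjamini-Hochberg adjusted p from limma was at most 0.05 and the fold at least 1.4. Every transcript cluster of the table passed the adjusted p, so in effect the fold decides. Over all 6951 transcript clusters, 15.0% rose and 17.6% fell, or 2.20% and 5.06% at a fold of at least 2. On 100% of them the arrays of the groups did not overlap, so a lack of overlap is a property of the table and sets no member apart. Among the 4 members, 3 fell and 1 rose, and with the stricter fold 2 fell and 0 rose. Because the rule and the table both used this contrast, nothing is read from that count. In bulk RNA, fewer cells carrying a transcript and less of it per cell cannot be told apart.

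The *Magea5* transcript cluster (10607450) had intensities of 298, 226 and 201 on control arrays 1, 2 and 3 and of 33, 45 and 50 on the knockdown arrays. All knockdown arrays lay far below the lowest control array, with a gap of 151. Control arrays averaged 242 ± 50.4 (SD, n = 3) and knockdown arrays 42.7 ± 8.74 (SD, n = 3), 17.6% of the control level on the log2 means. The log2 difference was -2.50 (standard error 0.17), or 5.67-fold lower. The arrays of each group scattered more than usual for this table: the SD of the log2 values was 0.29 in the control and 0.31 in the knockdown, against medians over all transcript clusters of 0.076 and 0.055. Taken 1 at a time, the knockdown arrays lay 2.85, 2.41 and 2.25 log2 units under the control mean.

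*Ssxb3* (10603533) had intensities of 93, 72 and 63 on the control arrays and of 37, 33 and 32 on the knockdown arrays. The groups were separated by 26 intensity units, and the spread was wider in the control, where array 1 was highest. Control arrays averaged 76.0 ± 15.4 (SD, n = 3) and knockdown arrays 34.0 ± 2.65 (SD, n = 3), which is a log2 difference of -1.14 (standard error 0.13).

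*Rhox1* (10604111) had intensities of 915, 846 and 897 in the control and of 627, 620 and 572 in the knockdown. Both groups were tight, with coefficients of variation of 4.04% and 4.94%. The mean was 886 ± 35.8 (SD, n = 3) against 606 ± 29.9 (SD, n = 3), 68.4% of the control level. Its log2 difference of -0.55 (standard error 0.058) is close to the fold threshold, which lies at 0.49 on this scale.

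*Hspa2* (10396652), the autosomal member, moved the other way. Its intensities were 199, 192 and 166 on the control arrays and 279, 283 and 315 on the knockdown arrays, so that the lowest knockdown array exceeded the highest control array by 80. The averages were 186 ± 17.4 (SD, n = 3) and, with *Kap1* depleted, 292 ± 19.7 (SD, n = 3), 158% of the control level and a log2 difference of 0.66 (standard error 0.079). *Hspa2* was the only member with a higher signal after *Kap1* knockdown.

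**Figure D1:**
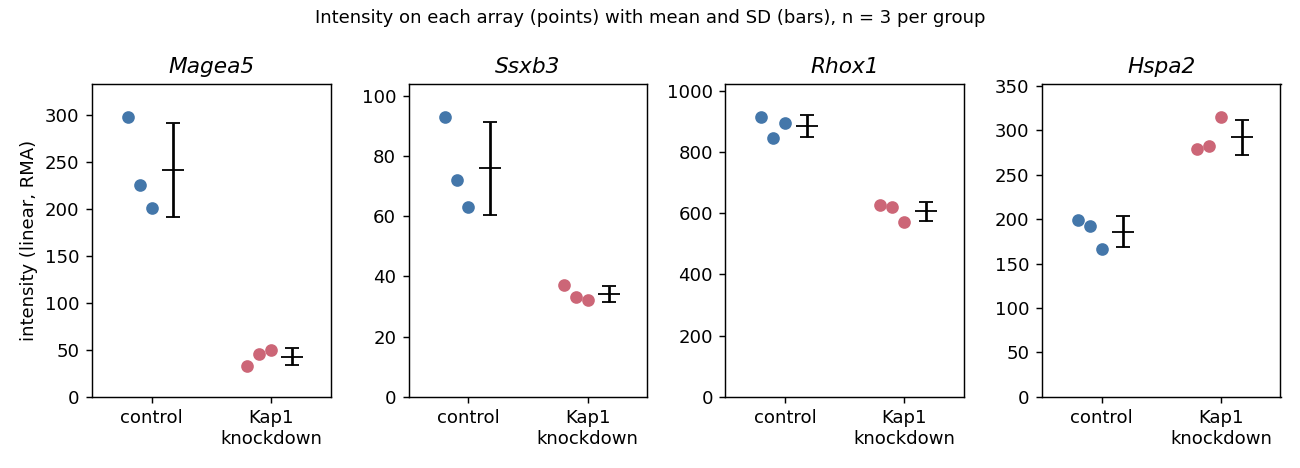
Intensity (linear scale, vertical axis from 0) of *Magea5*, *Ssxb3*, *Rhox1* and *Hspa2* on control arrays 1 to 3 (blue) and *Kap1* knockdown arrays 1 to 3 (red), left to right, with the mean and SD of each group in black. The first 3 genes are lower on every knockdown array, *Magea5* at 33 to 50 against 201 to 298, while *Hspa2* is higher at 279 to 315 against 166 to 199.

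The members also differ in where their signal lies on the range of the arrays. Intensities of different transcript clusters depend on their probes and are not compared here as expression levels, and the files used here give no detection call. An intensity of 64 (6 on the log2 scale) was taken as a mark for dim signal. The *Magea5* arrays were all above it in the control and all below it in the knockdown. For *Ssxb3*, 2 control arrays were above the mark and control array 3, at 63, was just below it, as were all knockdown arrays. *Rhox1* and *Hspa2* stayed above it on all 6 arrays. A filter on a mean log2 intensity of at least 6 in either group keeps all 4 members, but *Magea5* and *Ssxb3* only through the control, the group in which they are higher, and a transcript cluster kept in that way had to differ. Of the 6951 transcript clusters 127 do not pass this filter.

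Several further transcript clusters read close relatives of *Magea5*. The copies of the family are alike in sequence, and probes may pick up more than 1 of them. A pair of transcript clusters is annotated to the 6 genes *Magea1*, *Magea2*, *Magea3*, *Magea5*, *Magea6* and *Magea8* together. The one numbered 10607443 read 127, 127 and 127 in the control and 61, 67 and 66 in the knockdown, a log2 difference of -0.97 (standard error 0.053). The other, 10607454, read 138, 133 and 131 in the control and 61, 61 and 59 in the knockdown, a log2 difference of -1.15 (standard error 0.049). Both were lower on every knockdown array, and by less than the transcript cluster of *Magea5* alone. The near identity of the control values of 10607443 is not evidence of precision: before rounding, arrays 1 and 3 held the same number to the last digit, as did at least a pair of control arrays for 247 transcript clusters of the table.

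Among relatives with a transcript cluster of their own, *Magea3* read 80, 69 and 54 in the control and 44, 43 and 40 in the knockdown and fell, with a log2 difference of -0.66 (standard error 0.12). *Magea6* read 34, 34 and 30 against 27, 27 and 26, a log2 difference of -0.29 (standard error 0.062) that stays under the fold threshold. These last values lie close to the lowest intensities of the table, 22 and 24. The transcript cluster shared by *Magea3* and *Magea8* had a log2 difference of -0.59 (standard error 0.077). All 6 MAGE-A transcript clusters were thus lower in the knockdown, and 5 of them passed the fold, though that of *Magea3* and *Magea8* missed it with a pseudocount of 16, at -0.44. That transcript cluster and *Magea6* did not pass the filter on dim signal.

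The 4 SSX transcript clusters were all lower in the knockdown and past the fold. The one annotated to *Ssxb1*, *Ssxb2*, *Ssxb3*, *Ssxb9* and *Ssxb10* (10603538) read 144, 86 and 99 in the control and 54, 52 and 45 in the knockdown, a log2 difference of -1.09 (standard error 0.16), nearly that of *Ssxb3* alone. The others are annotated to 11 genes of the family each. Number 10598528 read 107, 75 and 83 against 58, 54 and 57, a log2 difference of -0.63 (standard error 0.11). Number 10598538 read 121, 89 and 101 against 69, 63 and 58, a log2 difference of -0.70 (standard error 0.11). Control array 1 was the highest of its group on all 4 SSX transcript clusters and on *Magea5*. Without it the log2 difference of *Ssxb3* was -0.99 and that of *Magea5* -2.34. The promoter windows of *Ssxb1* and *Ssxb2* were 92.4% and 93.4% identical to that of *Ssxb3* after global alignment, and those of *Ssxb5*, *Ssxb6*, *Ssxb8*, *Ssx9*, *Gm6592* and *Gm14459* from 43.6% to 47.2%. The windows of the MAGE-A copies were 47.3% to 56.6% identical to that of *Magea5*. Which of these copies contributes signal cannot be told apart on this array.

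**Figure D2:**
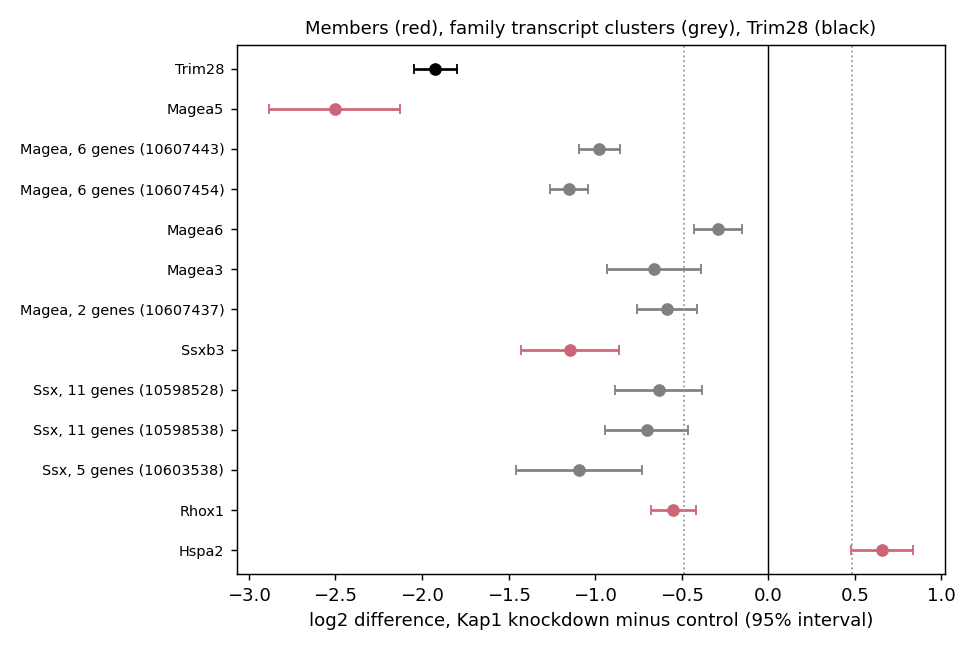
Log2 difference, *Kap1* knockdown minus control (horizontal axis), with its 95% interval from limma for *Trim28* (black), the 4 members (red) and the other MAGE-A and SSX transcript clusters (grey), named by gene or by the number of genes annotated and the transcript cluster number. Dotted lines mark the fold of 1.4. Of the points shown only *Hspa2*, at 0.66, lies above 0, and *Magea5*, at -2.50, lies lowest.

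Outside the MAGE-A copies few of the listed family members are on the table. Of 27 listed MAGE genes 5 had their own transcript cluster there and 3 were present only through shared ones. *Magea5* and *Magea3* fell and none of the 5 rose. *Maged1*, a widely transcribed MAGE gene that is not germline-restricted, had a log2 difference of -0.41 and *Magee1* one of 0.41. All 5 passed the adjusted p, which the table ensures, and the last 2 missed the fold. The median of the 5 was -0.41, beside 0.15 over the 5322 named genes of the table. Of 33 genes of the *Rhox* cluster and its relatives, only *Rhox1* and *Esx1* were on the table. *Esx1*, an X-linked homeobox gene of placenta and testis, rose from 127, 131 and 134 in the control to 244, 224 and 214 in the knockdown, a log2 difference of 0.80 (standard error 0.060). *Rhox1* and *Esx1* therefore moved in opposite directions.

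Of 62 other cancer-testis genes 6 were on the table with a transcript cluster of their own; 2 fell, none rose and 4 stayed under the fold. *Nxf7*, an X-linked gene of the nuclear RNA export factor family, read 456, 442 and 390 in the control and 90, 97 and 85 in the knockdown, a log2 difference of -2.24 (standard error 0.074). *Xlr*, of the X-linked lymphocyte regulated family, read 302, 323 and 302 against 156, 162 and 178, a log2 difference of -0.90 (standard error 0.063). The median of all 6 was -0.31, and the 4 under the fold lay on both sides of 0. *Nxf7* and *Xlr*, like *Magea5*, *Ssxb3* and *Rhox1*, lie on the X chromosome.

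Genes of germ cell stages on the table moved in both directions. Of 42 genes of spermatogonia and meiosis, 6 had their own transcript cluster on the table and 1 was present only through a shared one. Of the 6, *Hspa2* rose and 4 stayed under the fold. *Gfra1*, a receptor subunit for the growth factor GDNF that is also found in neurons, fell by 0.67 on the log2 scale. The 6 lay on both sides of 0, with a median of 0.02. *Dazl*, an RNA-binding protein of germ cells, read 48, 52 and 47 in the control and had a mean of 43.0 in the knockdown, a log2 difference of -0.19 under the fold. Of 29 spermatid genes 5 were present, and *Akap3*, an anchoring protein of the sperm tail, at 0.72, and *Crem*, a transcription factor of spermatids, at 0.51, rose, while 3 stayed under the fold. The rise of *Crem* missed the fold with a pseudocount of 16, without control replicate 2 or 3, and without knockdown replicate 2. Of 27 genes of the piRNA pathway, which silences transposons in germ cells, 4 were on the table and all stayed under the fold. They were *Morc1* (0.42), *Asz1* (0.20), *Tdrd7* (-0.19) and *Pnldc1* (-0.32), so their median of 0.01 lies between values on both sides of 0.

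Chaperone genes were read beside *Hspa2*. Of 44 genes of the HSP70 family, its co-chaperones and heat shock factors, 11 had their own transcript cluster on the table. Another 2 were present only through shared ones and are not given here. *Hspa2* was the only one of the 11 that rose. *Hspa5*, the HSP70 of the endoplasmic reticulum, at -0.70, and *Hyou1*, a large HSP70-related protein of the same compartment, at -0.93, fell. The other 8 stayed under the fold, among them *Hspa4l* at 0.15 and *Hspa14* at 0.17, and the median of the 11 was -0.18. *Dnajb11*, a co-chaperone of *Hspa5*, lay just short of the fold at -0.48 and passed it without control replicate 1 or 3 and without knockdown replicate 1 or 2.

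Of 35 factors that keep germline genes silent, 15 had their own transcript cluster on the table and 1 was present only through a shared one. Among the 15, *Trim28* and 3 others fell and none rose, while 11 stayed under the fold. The median of the 15, *Trim28* included, was -0.20. The 11 lay on both sides of 0. Higher were *Rybp* (0.44), *Kdm5c* (0.44), *Zbtb17* (0.27), *Rnf2* (0.26), *Atf7ip* (0.22) and *Kdm1a* (0.22). Lower were *Cbx5* (-0.34), *Smchd1* (-0.25), *Dnmt3a* (-0.23), *Pphln1* (-0.20) and *Hdac1* (-0.15). *E2f6*, which recruits a variant Polycomb complex to germline promoters in mouse, read 544, 496 and 442 in the control against a mean of 321 in the knockdown, a log2 difference of -0.62 (standard error 0.077). *Uhrf1*, which maintains DNA methylation, had -0.57 (standard error 0.054), and *Morc2a*, an ATPase that works with the HUSH silencing complex, -0.59 (standard error 0.063). These values stand beside the members as measurements, and any link between them was not tested.

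**Figure D3:**
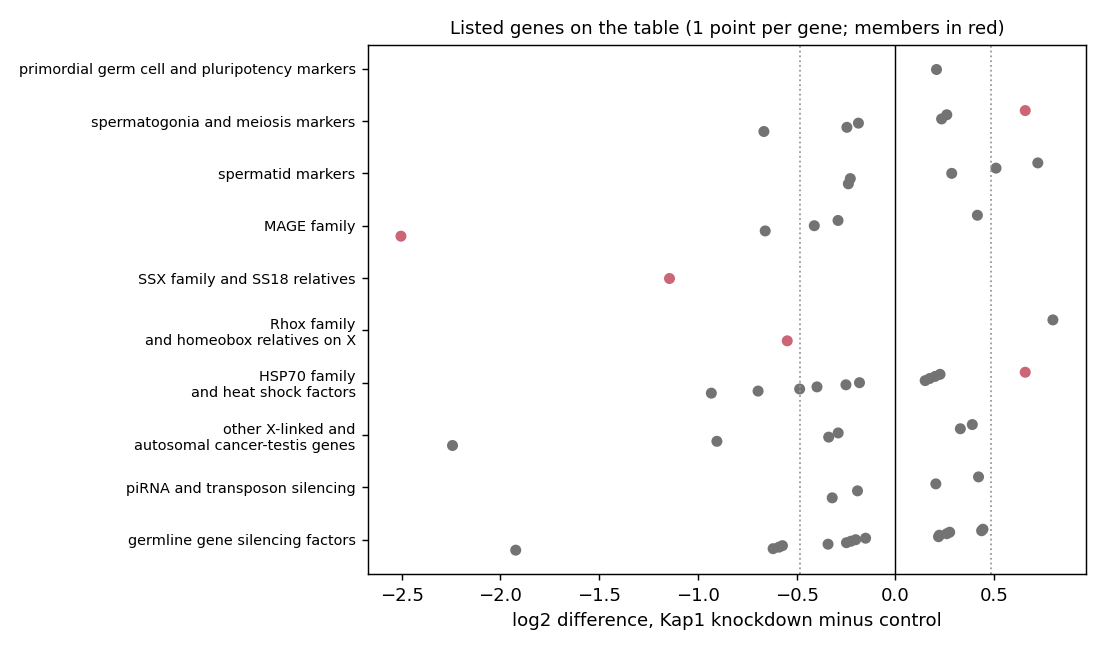
Log2 difference, *Kap1* knockdown minus control (horizontal axis), of each listed gene with its own transcript cluster on the table, 1 point per gene and 1 row per list, with the 4 members in red and the fold of 1.4 as dotted lines. *Hspa2* appears in both the meiosis and the HSP70 lists. Points lie on both sides of 0 in most lists, and only *Magea5* (-2.50) and *Nxf7* (-2.24) lie below -2.

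*Magea5*, *Ssxb3* and *Rhox1* share the X chromosome, and the other X-linked genes on the table had a median difference below 0. Of the 178 other named X-linked genes 67, or 37.6%, fell and 19 rose, with a median log2 difference of -0.37. Taken 1 array at a time the median was -0.39, -0.35 and -0.33 for knockdown arrays 1, 2 and 3 against the control mean. Of 5135 named genes on other chromosomes 15.7% fell and 16.0% rose, with a median of 0.17, although 48.9% were below 0. The smallest absolute log2 difference of the table was 0.12, so where the split is near even a few genes can move a median across 0. Because listed genes all differ between the groups, these shares say nothing of X-linked genes off the table, and no test was run on them. Set against the X-linked median, *Rhox1* was lower by 0.18 on the log2 scale, and 56 of the 178 genes lay below it. *Ssxb3* was lower than that median by 0.77, with 14 genes below it, and *Magea5* by 2.13, with 0 below it. *Hspa2*, on chromosome 12, lay 0.42 above the median of the 161 other named genes there, which was 0.24, and 11 of them had a larger rise. A median below 0 was not particular to the X chromosome. With the members included the X median was -0.38. Of 19 autosomes 8 also had medians below 0, from -0.33 on chromosome 9 and -0.31 on chromosome 7 to -0.13 on chromosome 15. On chromosome 15 the split was near even, with 49.8% of its named genes on the table above 0. Of the named genes on the table, 38.7% fell on the X chromosome, 27.7% on chromosome 9, 26.1% on chromosome 13 and 25.3% on chromosome 7. Any part of chromosome-level differences in the values of the members was not tested.

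**Figure D4:**
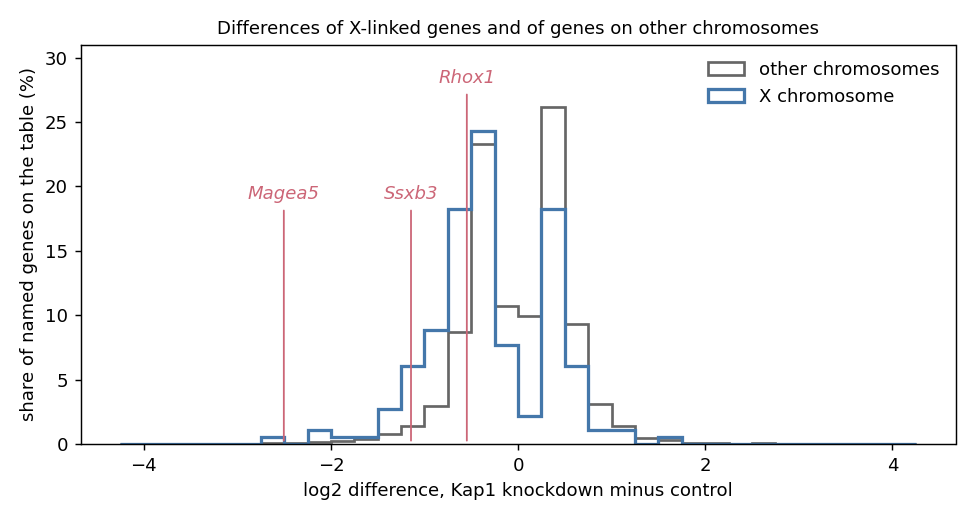
Share of named genes on the table (%, vertical axis) by log2 difference, *Kap1* knockdown minus control (horizontal axis, bins of 0.25), for the X chromosome (blue) and all other chromosomes (grey), with the 3 X-linked members marked. *Rhox1* (-0.55) lies within the bulk of X-linked genes, whose median is -0.38 with the members included, and *Magea5* (-2.50) lies at the lower end.

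Neighbouring genes were read from the RefSeq gene order as the nearest 3 on the table on each side, which are often not adjacent, so the number of protein-coding genes between is given. All 6 neighbours of *Rhox1* were lower, as were 70.2% of the 178 other named X-linked genes on the table. On one side lay *Gm9* (0 genes between) at -0.42, *Snora69*, a small RNA gene, at -0.68 and *Nkrf* (9 between) at -0.53. On the other side, farther away, were *Zbtb33* (34 between) at -0.36, *Lamp2*, a lysosomal membrane protein (37 between), at -1.20 and *Cul4b*, a ubiquitin ligase scaffold (38 between), at -0.52. The neighbours of *Magea5* were mixed. *Magea3* (2 between) and *Magea6* (3 between) were followed on one side by *Ubqln2*, a ubiquilin (21 between), which rose by 1.17, and on the other side lay *Acot9* (3 between) at -0.50, *Prdx4* (4 between) at -0.37 and *Rps6ka3* (14 between) at 0.42. Those of *Ssxb3* were mixed as well. *Slc38a5*, an amino acid transporter, was at -0.59, *Ftsj1* at 0.37 and *Ebp* at -0.35 on one side, with 6 to 9 genes between, and *Dynlt3* at 0.51, *Rpgr* at 0.70 and *Atp6ap2* at -0.17 on the other, with 19 to 39 between. Near *Hspa2*, *Churc1* (0.64, 3 between) and *Sgpp1* (0.73, 8 between) rose, *Syne2* (0.28, 6 between), *Fntb* (0.35, 6 between) and *Gphn* (0.20, 10 between) stayed under the fold, and its nearest neighbour *Zbtb1* (0 between) had a log2 difference of -0.43.

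The genes whose pattern was most like that of each member were sought over the 6 arrays, by the root mean square difference of log2 intensities centred on their own control means. For *Magea5* the closest were *Cnn2* (0.22), *Tln2* (0.23) and *Itga3* (0.26), and for *Ssxb3* they were *Iqcg* (0.091), *G530011O06Rik* (0.096) and *Mir100hg* (0.11). *Rhox1* was closest to *Amigo2* (0.024), *C1galt1c1* (0.026) and *Traf3ip2* (0.040), and *Hspa2* to *Csrp2* (0.032), *Ttll1* (0.033) and *Elmod3* (0.037). The distances of the first 2 members were larger than those of the last 2. With 3 arrays a group the measure mostly follows the size of the difference between the groups.

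Markers of the cells were read in the same way. Of 20 neuroblastoma and neuronal markers 14 were on the table, of which 7 fell, among them *Isl1* (-1.83), *Alk* (-1.52), *Gata3* (-1.30) and *Mycn* (-1.24). The 2 that rose were *Th* (1.15) and *Dbh* (0.67), enzymes of catecholamine synthesis. The other 5 stayed under the fold in both directions, with *Tubb3* at 0.30, *Hand2* at 0.19, *Gap43* at 0.18, *Stmn2* at -0.24 and *Elavl4* at -0.24. The summed intensity of the 14 was 28113 to 29257 in the control and 20425 to 21383 in the knockdown. Such a sum is weighted to the brightest transcript clusters, among them *Ret* (mean 6808 in the control and 3082 in the knockdown) and *Chga* (6639 and 4506). Of 10 fibroblast markers 2 were on the table, with sums of 201 to 214 and 217 to 220. They moved in opposite directions under the fold, *Pdgfra* at -0.23 and *Pdgfrb* at 0.38. Of 10 glial markers 1, *Sox9* (-1.22), was there, with 1097 to 1138 in the control and 435 to 533 in the knockdown. *Sox9* and *Dhh* (-1.28) fell, the 2 genes of 14 on the Sertoli and Leydig list with their own transcript cluster. Another 1 was present only through a shared one. Of 14 markers of primordial germ cells and pluripotency only *Lin28a* was there, at 0.21 and under the fold. Its values were 658 to 712 in the control and 767 to 807 in the knockdown. The part of these shifts in the values of the members was not tested. A marker missing from the table may be unchanged or not detected, since the table lists only transcript clusters that differ.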

How the data were processed

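The authors hybridised RNA to Mouse Gene 1.0 ST arrays, normalised them by Robust Multi-array Average in GeneSpring, called genes with limma and deposited linear intensity values of 6951 transcript clusters. A value table rounded to whole numbers was used. The authors also deposited the same intensity values unrounded, which differ by at most 0.5. The build of the transcript clusters and the rule of listing are not given in the sources used here.

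Groups follow the sample labels. The log2 of each intensity entered a linear model in R 4.3.3 with limma 3.58.1 (functions lmFit and eBayes, no block), with Benjamini-Hochberg adjustment over the whole table. The largest adjusted p was 0.0365. A run of the fit on simulated data, where most transcript clusters did not change, checked the code only, since all those of the table differ. The number of arrays limits the precision. Platform annotation names 1 gene for 5733 transcript clusters, several for 384 and none for 834. Of the first, 5726 matched RefSeq genes of GRCm38.p6 by identifier. Where a gene had several transcript clusters, the brightest was used. Promoters were searched and aligned in Python 3.11.15 with Biopython 1.88. The motifs were chosen after the promoters had been seen.

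The members and gene lists were chosen with earlier results of these data known. The genes named are the members, *Trim28*, up to 4 changed genes of each list with the largest difference, 3 listed neighbours on each side and the 3 genes of most like pattern. The other MAGE-A and SSX transcript clusters, and list genes under the fold, are named after their values were seen. Alternatives were a pseudocount of 16, the unrounded table, quantile normalization, median centring, the replicate number as a block, trended and robust eBayes, a filter on dim signal, a stricter fold of 2, a stricter adjusted p of 0.01, and leaving out each array. ChIP-seq and qPCR data were not analysed here.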

Additional observations from a re-analysis of the deposited data

How the results depend on the processing

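The 4 members kept their direction and the fold of 1.4 under all 13 refits. Some were a pseudocount of 16, the unrounded table, quantile normalization, median centring and leaving out each array in turn. The others were the replicate block, trended and robust eBayes and the filter on dim signal, which cannot alter the difference of a transcript cluster. The log2 difference moved by more than the SD between arrays only with the pseudocount of 16, to -2.13 for *Magea5* and -0.87 for *Ssxb3*. Leaving out 1 array at a time it ran from -2.63 to -2.33 for *Magea5*, from -1.27 to -0.99 for *Ssxb3*, from -0.58 to -0.51 for *Rhox1* and from 0.58 to 0.71 for *Hspa2*. At a fold of at least 2 the members counted were 2 lower and 0 higher. *Hspa2* passed the adjusted p in limma, like every transcript cluster of the table, but not this fold. Among all features 352 transcript clusters were lower and 153 higher, in place of 1225 and 1043. At the fold of 1.4 over all transcript clusters, those higher came to outnumber those lower when arrays were centred on their medians (1217 against 1123), when they were quantile-normalised (1207 against 1135) and when control replicate 1 was left out (1202 against 1099). The gap was widest the other way when control replicate 3 was left out, with 907 higher against 1337 lower. The deviations of same-numbered arrays of the groups had correlations of -0.17, -0.13 and 0.04 across transcript clusters. Those of differently numbered arrays ran from -0.09 to 0.20. With 3 arrays a group these values cannot decide whether the numbers pair the arrays. With the replicate block the log2 differences stayed at -2.50, -1.14, -0.55 and 0.66, as they must where each replicate number occurs once in each group. The counts stayed at 3 members lower and 1 higher, and at 1225 and 1043 transcript clusters. Signal near the lowest intensities of the table limits what can be said of the size of the *Magea5* and *Ssxb3* differences.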
